A study of Homo sapiens with 3 samples.

Results

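Cytosolic HSP70 chaperones were followed through 7 RefSeq transcripts of 6 genes, out of 25443 transcripts listed in at least 1 of 3 RNA-seq samples. The members are HSPA1A (NM_005345), HSPA1B (NM_005346), isoforms 1 and 2 of HSPA8 (NM_006597 and NM_153201), HSPA2 (NM_021979), HSPA1L (NM_005527) and HSPA6 (NM_002155). They were picked out by identifier, and the group was chosen on RPKM values and ratios of these same 3 samples that were already known, so all levels and ratios below are descriptions and no test was run on them. HEK293T, an immortal line from human embryonic kidney into which the large T antigen of SV40 was introduced, was cultured for 48 h in normal medium (the negative control), in medium with 1 mM DMSO, or in medium with 1 µM BDE-209 dissolved in DMSO at the same 1 mM. BDE-209 is the fully brominated diphenyl ether used as a flame retardant, and DMSO is its solvent. The sample labels name the line without the T, and the treatment label of the control also mentions BDE209 in a medium free of DMSO, while its title and protocol give normal medium. The sequenced libraries were made from polyA RNA with reads of 49 bases from 1 end, and expression is given as RPKM, that is reads per kilobase of transcript, scaled to the number of mapped reads. Each condition had 1 sample, so no difference below has a replicate check. The error given is a 95% counting interval (Clopper-Pearson) of the reads behind the RPKM values, which leaves out any variation between cultures and between library preparations.

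Proteins of the HSP70 family bind exposed hydrophobic stretches of other proteins and release them in a cycle driven by ATP. J-domain proteins (HSP40) bring in the substrate and stimulate the ATPase, and nucleotide exchange factors such as the BAG and HSP110 proteins reset the cycle. HSPA8, also called HSC70, is the constitutive member in the cytosol, whereas HSPA1A and HSPA1B are a pair of stress-inducible genes that are switched on by the heat shock factor HSF1. HSF1 binds heat shock elements, which are inverted repeats of the unit GAA. HSPA6 is known as a strictly inducible gene, HSPA2 is best known from the testis, where it serves spermatogenesis, and HSPA1L is expressed mainly in testis.

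On GRCh37 (hg19, the build of the study), HSPA1A lies on chromosome 6 from 31783320 to 31785723 on the plus strand, and HSPA1B on the same strand from 31795515 to 31798031. HSPA1L lies on the minus strand from 31777396 to 31783060, head to head with HSPA1A. HSPA8 lies on chromosome 11 from 122928197 to 122933938 on the minus strand, HSPA2 on chromosome 14 from 65002623 to 65012891 on the plus strand, and HSPA6 on chromosome 1 from 161494330 to 161496684 on the plus strand. HSPA1A, HSPA1B, HSPA6 and the HSPA2 transcript used here have 1 exon each, HSPA1L has 2, and HSPA8 has 9 in isoform 1 and 8 in isoform 2. Isoform 2 of HSPA8 has 493 codons against 646 in isoform 1.

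Sequence copies matter for this family, because the authors kept only uniquely mapped reads. The coding sequences of HSPA1A and HSPA1B differ at 4 of 1923 bases, all of them at the third base of a codon. Counted from 1 at the A of the start codon, with the base of HSPA1A first, the differences are G1710T, G1860C, C1905T and A1920G, and the longest stretch without a difference has 1709 bases. A 49-base coding stretch with 2 of the differences is shown here because it has the length of a read. It lies at chr6:31785390-31785438 in HSPA1A and at chr6:31797584-31797632 in HSPA1B (GRCh37, plus strand), and capitals mark G1860C and C1905T.
HSPA1A: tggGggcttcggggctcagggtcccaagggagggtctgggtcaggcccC
HSPA1B: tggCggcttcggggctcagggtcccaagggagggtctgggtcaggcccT

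Every 49-base window of each member's transcript was searched for exact copies in the GRCh37 genome on both strands. Of the 2352 windows of HSPA1A, 584 (24.8%) occurred once, and 1768 (75.2%) occurred more than once. For HSPA1B these were 701 of 2469 windows (28.4%) and 1768 (71.6%), and 113 of the 1875 windows within the coding sequence (6.03%) occurred once in either gene. Isoform 1 of HSPA8 had 1465 of 2216 windows (66.1%) that occurred once, 480 that occurred more than once and 271 that cross an exon junction and have no exact copy. Isoform 2 had 1315 of 1956 (67.2%) that occurred once. HSPA2 had 2449 of 2449 such windows, HSPA1L 2607 of 2714 (96.1%) and HSPA6 998 of 2307 (43.3%). In addition, 1715 of the 2216 windows of HSPA8 isoform 1 (77.4%) are also in isoform 2, so that most reads fit both isoforms. How the authors counted such reads is not given in the sources used here.

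**Figure D1:**
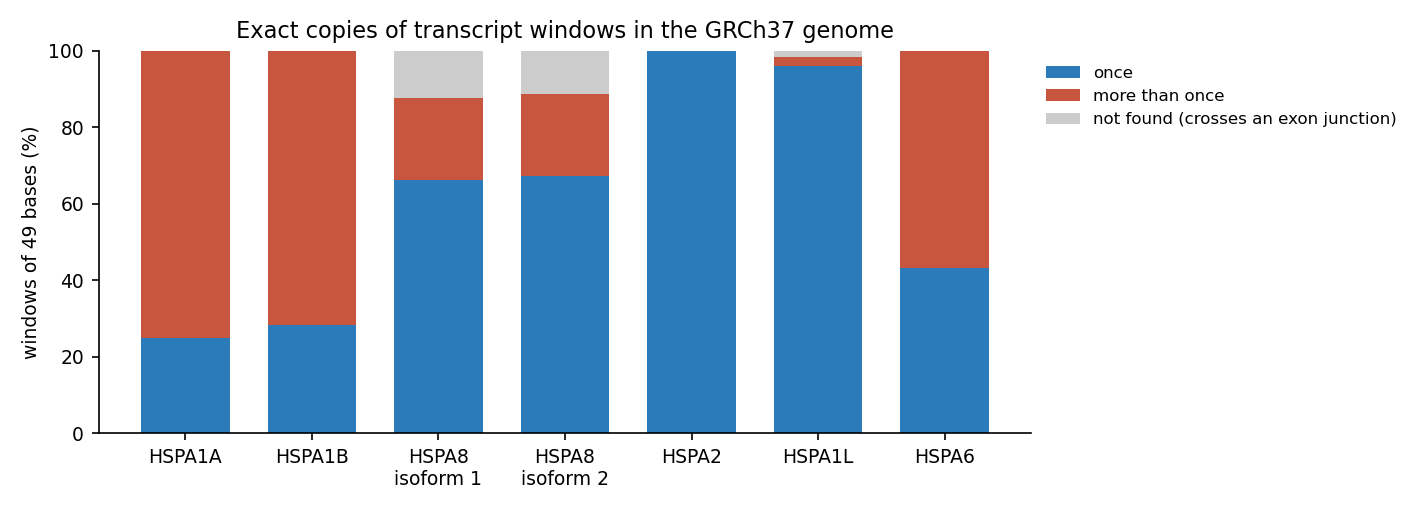
Share of the 49-base windows of each HSP70 transcript (y axis, percent of windows) that occur once in the GRCh37 genome, more than once, or not at all because they cross an exon junction. HSPA1A (24.8%) and HSPA1B (28.4%) have the smallest shares of windows that occur once, and all windows of HSPA2 occur once.

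The 250 bases before the RefSeq start site are shown for 4 genes, the constitutive HSPA8 and the inducible HSPA1A, HSPA1B and HSPA6. They are given in the direction of transcription and on GRCh38.p14, a later build than that of the study. They lie at chr6:31815293-31815542 (plus strand) for HSPA1A, at chr6:31827488-31827737 (plus strand) for HSPA1B, at chr11:123062137-123062386 (minus strand) for HSPA8 and at chr1:161524290-161524539 (plus strand) for HSPA6. Capitals mark matches to the heat shock element core, that is units of GAA and TTC that alternate with 2 bases between them.
HSPA1A: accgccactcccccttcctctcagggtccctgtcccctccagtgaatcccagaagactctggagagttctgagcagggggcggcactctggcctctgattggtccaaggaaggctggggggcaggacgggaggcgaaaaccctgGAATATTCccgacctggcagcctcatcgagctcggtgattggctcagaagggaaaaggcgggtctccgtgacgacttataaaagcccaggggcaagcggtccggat
HSPA1B: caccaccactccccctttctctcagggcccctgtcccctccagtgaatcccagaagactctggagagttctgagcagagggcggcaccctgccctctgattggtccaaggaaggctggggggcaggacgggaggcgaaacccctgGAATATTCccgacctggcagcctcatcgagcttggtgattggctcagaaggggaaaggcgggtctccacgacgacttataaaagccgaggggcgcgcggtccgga
HSPA8: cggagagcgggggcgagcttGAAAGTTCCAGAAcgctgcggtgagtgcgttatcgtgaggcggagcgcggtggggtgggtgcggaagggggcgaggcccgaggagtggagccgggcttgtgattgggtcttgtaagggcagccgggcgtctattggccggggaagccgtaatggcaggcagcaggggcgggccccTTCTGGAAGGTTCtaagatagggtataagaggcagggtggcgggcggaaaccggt
HSPA6: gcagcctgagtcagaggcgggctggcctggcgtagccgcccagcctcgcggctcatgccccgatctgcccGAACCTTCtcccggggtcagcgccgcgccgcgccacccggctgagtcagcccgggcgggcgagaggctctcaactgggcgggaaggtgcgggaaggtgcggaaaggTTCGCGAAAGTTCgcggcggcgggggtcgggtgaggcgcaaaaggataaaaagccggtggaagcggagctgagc

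The motifs searched were GAANNTTC and TTCNNGAA. Both read the same on the other strand, and they overlap where the run of units goes on. HSPA1A and HSPA1B each had 1 match of 2 units, GAATATTC, which begins at position -106 in HSPA1A and -105 in HSPA1B, counted back from the start site. HSPA8 had 2 matches of 3 units, beginning at -230 and -55, and HSPA6 had 1 of 3 units beginning at -74 and 1 of 2 units at -180. HSPA1L had the same GAATATTC, because its upstream 250 bases share 241 positions with those of HSPA1A, and HSPA2 had no match in this window. Of all 35116 promoters in the table, 11.6% held at least 1 match and 0.441% held 3 or more alternating units. CCAAT or its reverse complement was found at 2 places each in HSPA1A, HSPA1B and HSPA8, at 1 in HSPA2 and at none in HSPA6, and 9.53% of all promoters had 2 or more. The upstream sequences of HSPA1A and HSPA1B were identical at 235 of 251 aligned positions (93.6%). Only exact units at this spacing were counted, so elements with imperfect units were missed. The number of matches therefore does not rank the genes by the strength of their heat shock elements. A match is a run of letters and is not evidence of binding.

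Reads behind the RPKM values were recovered from the steps of the values. The totals by which RPKM had been divided came out as 4843621 reads for the control, 4782042 for DMSO and 4676791 for BDE-209. These are not the mapping totals of the study, which gives larger numbers of uniquely mapped reads for each sample and a higher one for BDE-209 than for DMSO, and the source of the gap was not tested. The read numbers and counting intervals of the members rest on the recovered totals and on the length taken for each transcript. The members with high levels rest on 2818 reads or more in each sample, and those with low levels on 19 reads or fewer. The control library stood apart in structural RNA. RN7SL1, the RNA of the signal recognition particle, had 1212 RPKM in the control, 59.4 in DMSO and 75.1 in BDE-209, and the 28S ribosomal RNA (RNA28SN5) had 1939, 863 and 812 RPKM. Both are highest in the same sample as HSPA1A, HSPA1B and HSPA8, and their part in the HSP70 differences was not tested. Protein-coding transcripts of at least 10 RPKM had a median log2 ratio of 0.01 between DMSO and control. RPKM is already scaled to the reads of each library, so this median does not show that the libraries were alike. Of markers fixed for HEK293 cells, VIM had 261 to 299 RPKM, NEFM 49.8 to 54.1, KRT18 40.7 to 48.1 and NEFL 24.4 to 27.9, while KRT8 had 5.93 to 6.38, LHX1 0.914 to 1.43 and SOX11 under 0.05 RPKM in each sample, and PAX2 had no row. Among markers of other cell types, PTPRC of leukocytes had no row, ALB of hepatocytes had up to 0.0944 RPKM, PECAM1 of endothelium 0.242 to 0.438 and COL1A1 of fibroblasts 4.44 to 5.19.

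HSPA8 was the most highly expressed member per length in every sample. Isoform 1 had 1314 RPKM in the control, 1021 in DMSO and 1005 in BDE-209. Isoform 2 had 1149, 881 and 881 RPKM in the same order. For both isoforms the control was the high sample, and the values in DMSO and BDE-209 were close to each other. The ratio of isoform 1 to isoform 2 was 1.14 in the control, 1.16 in DMSO and 1.14 in BDE-209. Since both isoforms share most of their windows, this ratio does not measure the isoforms separately.

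HSPA1B came next, with 430.8 RPKM in the control, 295 in DMSO and 304 in BDE-209. HSPA1A had 351, 242 and 246 RPKM. Again the control was highest in both genes, and DMSO and BDE-209 lay together well below it. HSPA1B stood above HSPA1A by about the same ratio in each sample, 1.23 in the control, 1.22 in DMSO and 1.23 in BDE-209. RPKM is divided by the whole length of the transcript, so the levels of HSPA1A and HSPA1B depend on how copies were handled. With the recovered reads divided by the number of windows that occur once in the genome, a setting that holds only if no read with several matches was counted, the control had 7.11 reads per window for HSPA1A, 7.59 for HSPA1B and 9.89 for HSPA8 isoform 1. The ratio of HSPA8 isoform 1 to HSPA1A in the control was then 1.39, against 3.75 in RPKM. The order of the 3 genes was the same on both scales, and ratios between samples are not affected by this step.

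The other members were near the limit of this depth. HSPA2 had 1.253 RPKM in the control (17 reads), 1.42 in DMSO (19 reads) and 0.916 in BDE-209 (12 reads). HSPA1L had 0.162, 0.082 and 0.168 RPKM, which are 2, 1 and 2 reads. HSPA6 had 0.155 RPKM in the control, that is 2 reads at the transcript length nearest to the annotation, and was listed in neither of the other samples. For HSPA6, 0 reads allow up to 0.235 RPKM in DMSO and 0.241 in BDE-209 at a floor of 3 reads, so its value in the control is below that floor. The counting intervals of these 3 genes overlapped between all samples, and no order of the samples can be read from them. HSPA1L, whose upstream window overlaps that of HSPA1A, thus had 0.162 RPKM in the control beside 351 for HSPA1A.

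**Figure D2:**
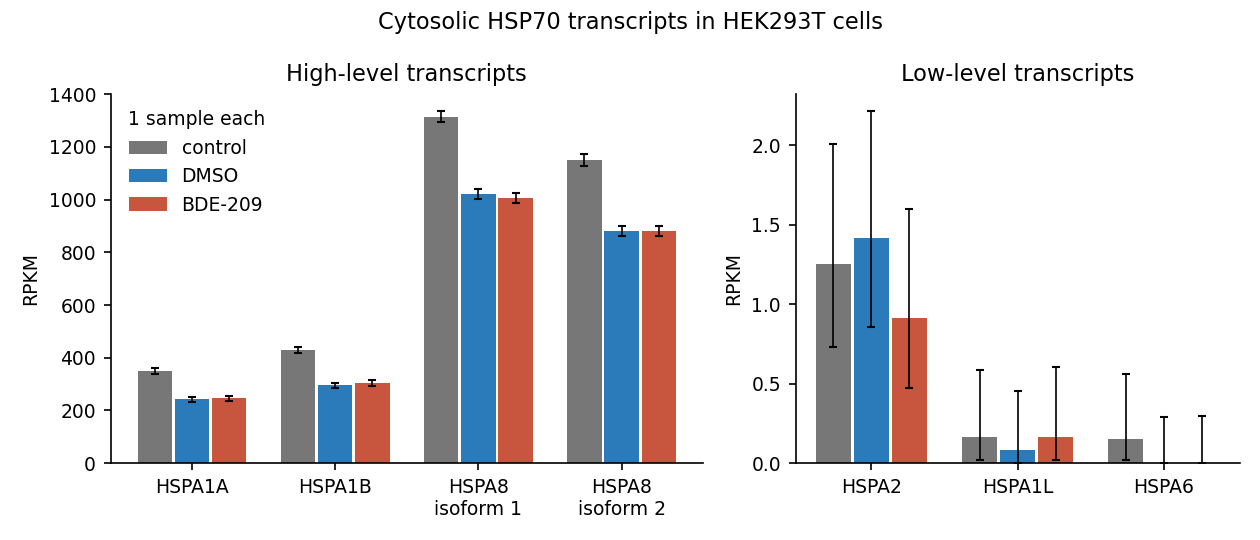
RPKM of the 7 HSP70 transcripts (y axis) in the control, DMSO and BDE-209 samples, with 1 sample for each bar and 95% Poisson intervals of the recovered reads as error bars. The left panel holds HSPA1A, HSPA1B and both isoforms of HSPA8, which were highest in the control, and the right panel, on its own scale, holds HSPA2, HSPA1L and HSPA6, whose intervals overlap.

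The comparison of DMSO with the negative control addresses the effect of the solvent. HSPA1A and HSPA1B were lower in DMSO by close to 31%, and HSPA8 by 22 to 23%. On the log2 scale HSPA1A differed by -0.53 (95% counting interval -0.60 to -0.46), and HSPA1B by -0.54 (-0.61 to -0.48). HSPA8 differed by -0.36 in isoform 1 (-0.40 to -0.33) and by -0.38 in isoform 2 (-0.43 to -0.34). The intervals of the HSPA1 pair lie below those of HSPA8. They cover counting error only, and the members were chosen with these ratios known. A contrast of inducible with constitutive genes was therefore not tested. In RPKM the difference was largest for HSPA8 isoform 1, at -293, with -136 for HSPA1B and -108 for HSPA1A. That order depends on how copies were handled. Per window that occurs once, HSPA8 isoform 1 had 9.89 reads in the control and 7.58 in DMSO. On the same scale HSPA1B had 7.59 and 5.14, and HSPA1A had 7.11 and 4.85. HSPA2, with 17 and 19 reads, had a log2 ratio of 0.18 and an interval from -0.84 to 1.21.

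None of the 5 members with a mean of at least 1 RPKM reached the 2-fold difference that the study required, against 2.16% of all 15567 transcripts with that mean. The probability that the study used beside the fold was not computed here, because it is simulated within single samples. At 1.5-fold the count was also 0 of 5 (6.94% of all). Past a smaller limit of 20% lower or 25% higher, which are the same distance on the log2 scale, it was 4 of 5 (18.8% of all). The percentage depends on the level. With a mean of at least 10 RPKM, 2.21% of 8060 transcripts were past the lower limit and 1.96% past the higher one, and 4 of 4 members were past the lower one. With a mean of at least 100 RPKM, 1.38% of 795 transcripts were past either limit, and these 11 transcripts included the same 4 members. Among the 764 protein-coding transcripts of that level, the ratio of DMSO to control of HSPA1B ranked 1 from the lowest, that of HSPA1A 2, and those of HSPA8 isoforms 2 and 1 ranked 3 and 5. The group was chosen with this contrast in view, so nothing is read from these counts. The isoforms of HSPA8 share most of their windows, so these 4 members are not 4 separate measurements. HSPA1A and HSPA1B also share most of their windows, and whether reads from those windows entered their values is not known. The choice of the group and the shared windows limit the counts of members in the comparisons below as well. RPKM scaled to the protein-coding total, which leaves 7SL and ribosomal RNA out of the total, gave -0.53 for HSPA1A and -0.36 for HSPA8 isoform 1. The factors were 0.993 to 1.004, so this scaling could hardly move a ratio. It is no test of the part of structural RNA in these differences.

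The comparison of BDE-209 with DMSO addresses BDE-209 itself, since both samples hold the solvent. HSPA1A had a log2 ratio of 0.03 (95% counting interval -0.05 to 0.10), and HSPA1B of 0.04 (-0.03 to 0.11). HSPA8 had -0.02 in isoform 1 (-0.06 to 0.02) and -0.0009 in isoform 2 (-0.05 to 0.05). These intervals all include 0, and within counting error they limit a difference in these 4 transcripts to at most 0.11 on the log2 scale. HSPA2 had 12 reads against 19, with a log2 ratio of -0.63 and an interval from -1.81 to 0.49.

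Among the 5 members with a mean of at least 1 RPKM, 0 reached 2-fold between BDE-209 and DMSO (2.22% of 15566 transcripts). HSPA2 was the 1 member past 1.5-fold (6.69% of all) and also the 1 past the limits of 20% lower or 25% higher (17.5% of all), at read numbers that cannot separate it from no difference. With a mean of at least 10 RPKM, 0 of 4 members were lower by at least 20% (1.84% of 8060 transcripts) and 0 of 4 higher by at least 25% (1.29%). Of the 795 transcripts with at least 100 RPKM, 0.377% were past either limit, and no HSP70 member was among them.

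BDE-209 against the negative control joins both steps and shares its control sample with the comparison of DMSO with control. HSPA1A had 246 RPKM against 351, a log2 ratio of -0.51 (95% counting interval -0.58 to -0.44). HSPA1B had a log2 ratio of -0.50 (-0.56 to -0.44). HSPA8 had -0.39 in isoform 1 (-0.42 to -0.35) and -0.38 in isoform 2 (-0.43 to -0.34). The intervals of the HSPA1 pair lie below those of HSPA8 here too. With the same control library, this does not repeat the first comparison independently. HSPA1A, HSPA1B and HSPA8 isoform 1 together made up 0.392% of the RPKM total in the control, 0.294% in DMSO and 0.296% in BDE-209.

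At 2-fold, 0 of the 5 members with a mean of at least 1 RPKM differed between BDE-209 and the control (2.08% of 15568 transcripts). At 1.5-fold it was 0 of 5 (6.67% of all), and past 20% lower or 25% higher it was 5 of 5 (18.6% of all), where HSPA2 was added at 12 against 17 reads. With a mean of at least 10 RPKM, 4 of 4 members were lower by at least 20% (2.48% of 8060 transcripts) and 0 higher by at least 25% (1.8%). With at least 100 RPKM, all 4 were among the 1.38% of 795 transcripts past either limit. These 4 are not 4 separate measurements, because the isoforms of HSPA8 share most of their windows, and nothing is read from the counts. Scaled to the protein-coding total, which again could hardly move a ratio, HSPA1A had -0.49 and HSPA8 isoform 1 had -0.37.

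**Figure D3:**
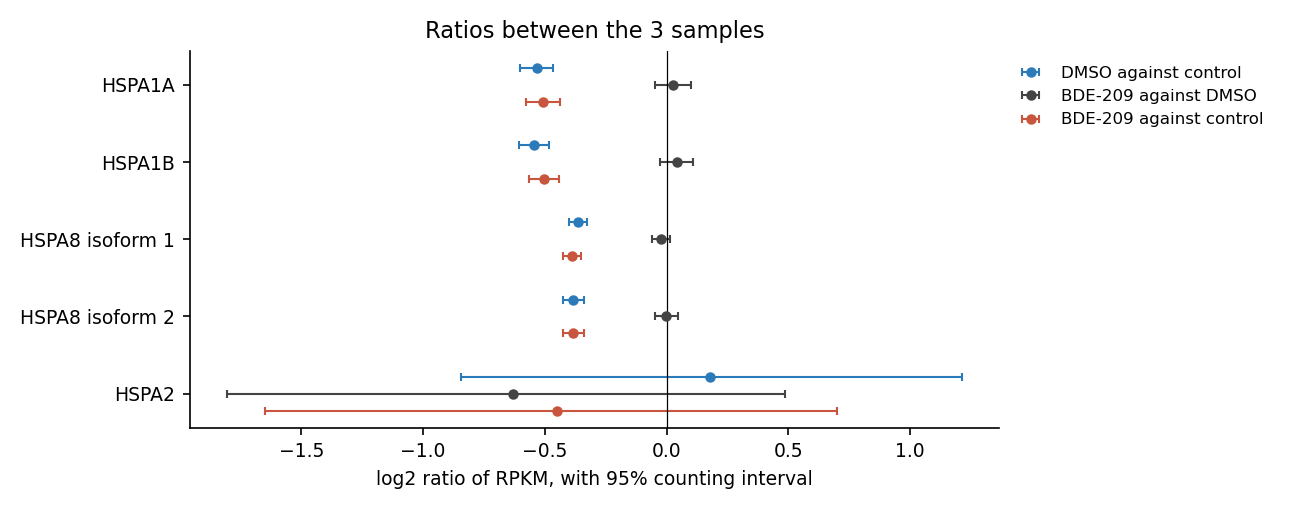
Log2 ratios of RPKM (x axis) of HSPA1A, HSPA1B, both isoforms of HSPA8 and HSPA2 in the 3 comparisons, with 95% Clopper-Pearson counting intervals as bars. HSPA1A, HSPA1B and HSPA8 lie between -0.36 and -0.54 in both comparisons with the control and at 0 within counting error between BDE-209 and DMSO, and the intervals of HSPA2 are wide and include 0.

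**Figure D4:**
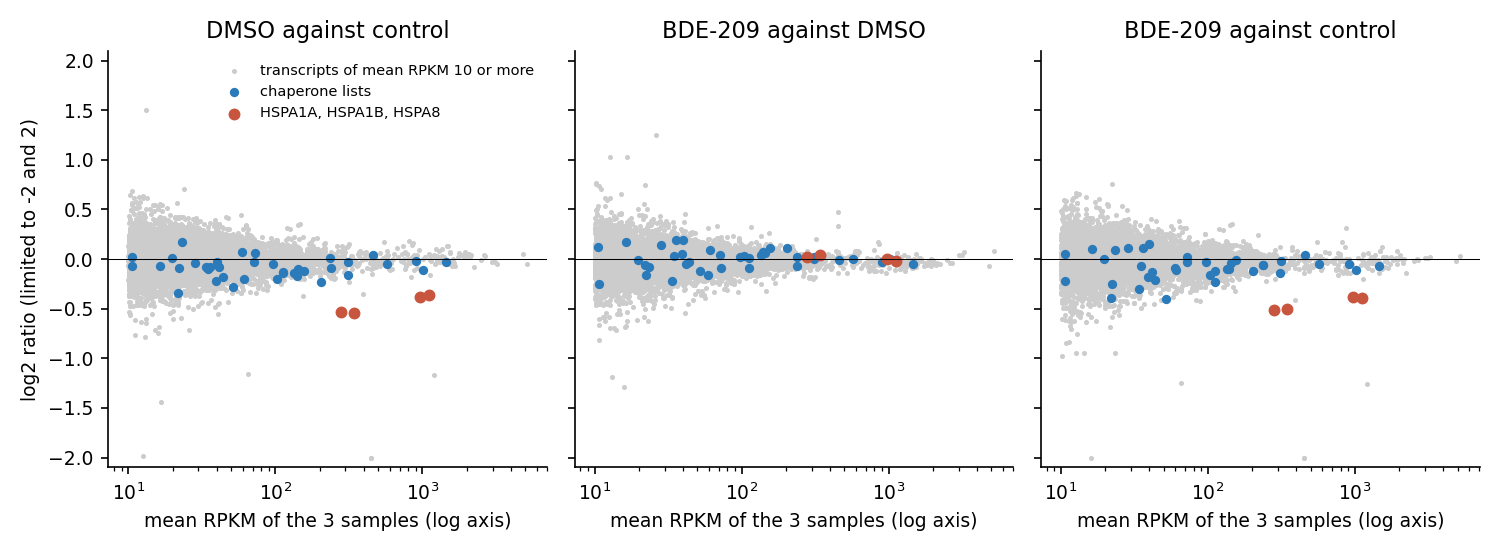
Log2 ratio (y axis, limited to -2 and 2) against mean RPKM (x axis, log scale) of transcripts with a mean of at least 10 RPKM, in the 3 comparisons. HSPA1A, HSPA1B and HSPA8 lie below the band of transcripts of like level in both comparisons with the control and inside it between BDE-209 and DMSO, and most genes of the chaperone lists lie slightly below 0 in the comparisons with the control.

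Partners of HSP70 were taken from 5 lists with 47 genes, of which 45 were listed in the files and 38 had a transcript with a mean of at least 10 RPKM. Between DMSO and control, 1 of the 38 was lower by at least 20% and 0 higher by at least 25%, beside the 2.21% and 1.96% of all transcripts given above. That gene was BAG3, an HSF1-responsive exchange factor that links HSP70 to selective autophagy, with 25.7 RPKM in the control, 20.4 in DMSO and 19.6 in BDE-209 (log2 ratio -0.34 for DMSO against control). Smaller differences leaned to 1 side. Of the 38 genes, 31 had a ratio below 0, with a median log2 ratio of -0.08, while 48.5% of all transcripts of that level were below 0, with a median of 0.005. Between BDE-209 and control, 2 of the 38 were past the lower limit (2.48% of all transcripts) and 0 past the higher one (1.8%). These were BAG3 (-0.39) and DNAJB1, the main J-domain partner of inducible HSP70, which had 60.4 RPKM in the control, 49.5 in DMSO and 45.7 in BDE-209 (-0.40). In this comparison 29 of the 38 were below 0, with a median of -0.07, against 49.8% of all transcripts and a median of 0.0008. Between BDE-209 and DMSO, 0 of the 38 were past either limit (1.84% of all transcripts lower and 1.29% higher), 17 were below 0, and the median was 0.008, against 51.7% of all transcripts and a median of -0.005. The lean of all transcripts depends on the level. With a mean of at least 100 RPKM, 54.8% of 795 transcripts were below 0 between DMSO and control (median -0.009) and 64.2% between BDE-209 and control (median -0.03). Of the 17 list genes of that level, 15 and 16 were below 0, with medians of -0.11 and -0.07. Genes were not tested, and genes of 1 library are not independent of each other.

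By role, the J-domain co-chaperones had a median log2 ratio of -0.07 between DMSO and control, over 7 genes of at least 10 RPKM, with DNAJB1 (-0.29) lowest. The exchange factors and adaptors had a median of -0.05 over 8 genes, from BAG3 (-0.34) to HSPBP1 (0.17), a factor that inhibits HSP70 folding by releasing its nucleotide. The other HSP70 and HSP110 proteins had a median of -0.11 over 8 genes, of which 7 were below 0. Among these, HSPH1, the HSP110 exchange factor, had -0.20, and HSPA5, the HSP70 of the endoplasmic reticulum, had -0.17. The 6 genes of the HSP90 system were all below 0, between -0.14 and -0.02. HSP90AA1, the inducible cytosolic HSP90, had 1067 RPKM in the control, 990.0 in DMSO and 989 in BDE-209, and HSP90AB1, the constitutive one, had 920.3, 908 and 889. The 9 heat shock factors and other heat-inducible genes had a median of -0.08. HSF1 itself had 43.7, 41.4 and 39.98 RPKM (-0.08 for DMSO against control). Thus none of the 38 genes had a difference between DMSO and control as large as that of HSPA1A, HSPA1B or HSPA8 in these libraries. BAG3 (-0.337) was close to HSPA8 isoform 1 (-0.364) there, and no counting interval was computed for list genes. Between BDE-209 and control the separation from HSPA8 did not hold. DNAJB1 (-0.403) and BAG3 (-0.393) had lower ratios than HSPA8 isoforms 1 (-0.388) and 2 (-0.384).

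**Figure D5:**
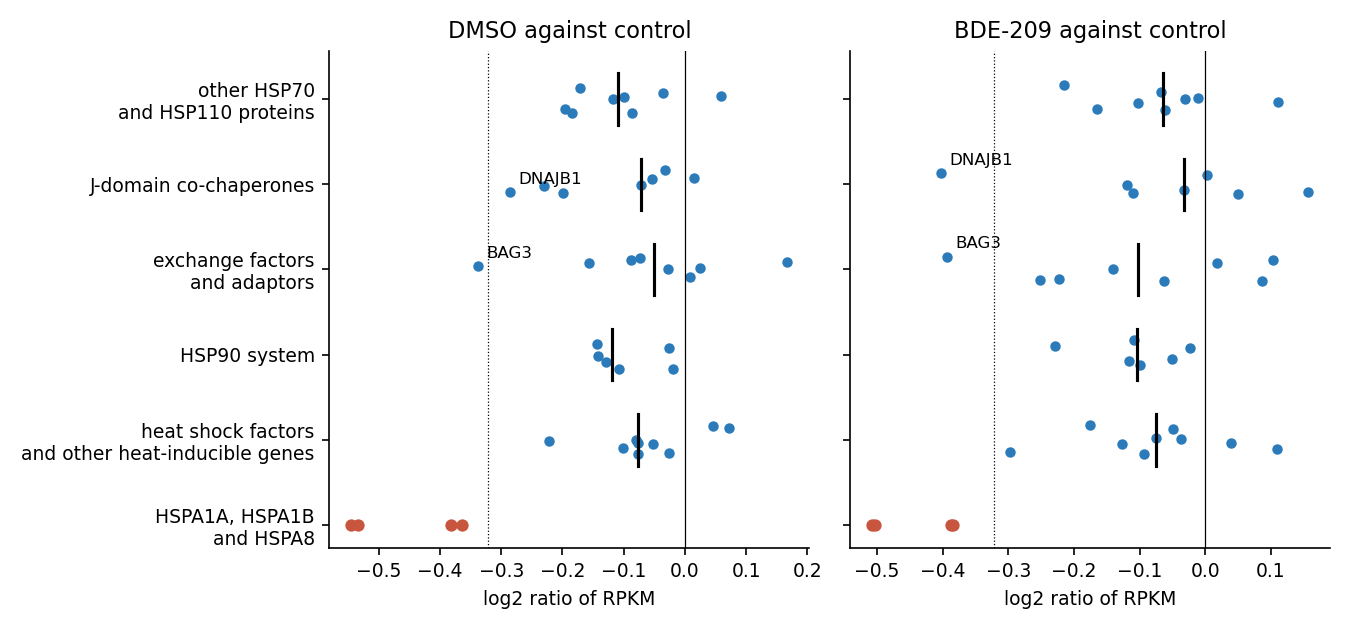
Log2 ratios of RPKM (x axis) of the 38 partner genes with a mean of at least 10 RPKM, by list, beside HSPA1A, HSPA1B and both isoforms of HSPA8, for DMSO and for BDE-209 against control. Points are genes, bars are list medians, and the dotted line marks a level 20% lower, which BAG3 passed in both comparisons and DNAJB1 in the second.

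The transcripts with the most similar pattern were looked for among 4798 protein-coding transcripts with a mean of at least 20 RPKM, with the HSP70 members themselves left out, by the distance of their log2 ratios of DMSO and BDE-209 to the control, over 3 samples. For HSPA8 isoform 1, BAG3 was the nearest transcript outside the members, at a distance of 0.03, followed by MED27, SMIM7, ARPC5L and LYAR at 0.055 to 0.065. BAG3, with 25.7 RPKM in the control, 20.4 in DMSO and 19.6 in BDE-209, was far below the level of HSPA8. No counting error was computed for these distances, so the order of the nearest transcripts is not established. For HSPA1A the nearest outside the members were NOL9 and HOXC9 at 0.07, and then 2 transcripts of GNL3L and MRPL27 at 0.11 to 0.14. The same 5 transcripts were the nearest to HSPA1B outside the members. NOL9 had 24.8 RPKM in the control, 17.2 in DMSO and 18.3 in BDE-209, and HOXC9 had 25.4, 16.7 and 18.1, far below the levels of HSPA1A and HSPA1B. With 3 samples such a likeness rests on 2 ratios that share the control.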

How the data were processed

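Libraries of polyA RNA from 3 HEK293T samples were read over 49 bases from 1 end. The authors mapped them on hg19 with SOAPaligner, with up to 2 mismatches, and retained unique alignments. The deposited values are RPKM per RefSeq transcript, written with 6 significant digits. A transcript without a row in a sample was set to 0. Samples were grouped by the treatment labels and titles, with 1 sample for each condition. The members, lists and comparisons were chosen with earlier results of these data known.

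From there, gene symbols were taken from the RefSeq table of GRCh38.p14 (24432 of 25443 identifiers matched). Gene positions and transcript sequences came from GENCODE 44 on GRCh37, and promoters from RefSeq on GRCh38.p14. The software was numba 0.67.0, pandas 2.3.3, scipy 1.17.1, numpy 2.4.6 and Python 3.11.15. The totals behind RPKM were the values that turn RPKM steps of single reads into whole transcript lengths (324 transcripts, score 0.471 against 0.151 for the next best total), and reads of a member were the whole numbers at the passing length nearest to the annotated one. More than 1 length passed for each member, so all read numbers depend on the length taken. There were 104 for HSPA8 isoform 1, 12 each for HSPA8 isoform 2 and HSPA6, and 6 for HSPA1L. HSPA1A, HSPA1B and HSPA2 had 2 each. This step was tested on simulated data with known totals, which does not test it against the totals of the study. In the simulation the annotated length lay close to the true one. The lengths taken for HSPA8 isoform 2, HSPA2, HSPA1L and HSPA6 lie further from their annotation, a setting that the simulation did not cover. For HSPA8 isoform 2, for example, 1817 bases were used against 2004 annotated. The recovered totals of 4676791 to 4843621 reads are below the uniquely mapped reads that the study gives for each sample, and the depth used for intervals is the recovered one. There, 1 read on HSPA1A corresponds to 0.0844 to 0.0875 RPKM. Intervals and floors cover counting error only.

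Log2 ratios were taken from RPKM with nothing added. Differences were counted at 2-fold, as in the study, at a mean of at least 1 RPKM, and transcripts at 0 in 1 sample were counted as past the fold. All members were named. Of the 5 lists, the 2 largest differences each way past 20% lower or 25% higher were named at a mean of at least 10 RPKM, with the other list genes chosen after their values were seen as examples of each role. For the likeness of patterns, the 5 nearest transcripts were named. Alternatives were a fold of 1.5, limits of 20% lower or 25% higher, no filter or a mean of 10 RPKM, coding transcripts only, 0.5 or 1 added to RPKM, a median-of-ratios factor and sums over copies. Scaling to the coding total and a mean of 100 RPKM were chosen after seeing the data.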

Additional observations from a re-analysis of the deposited data

How the results depend on the processing

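No paired analysis was possible because each condition had 1 sample, and leaving out a sample would leave a condition empty. The log2 ratios of members were recomputed 81 times, with 0.5 or 1 added to RPKM, a median-of-ratios factor, the coding total, or the sums of HSPA1A with HSPA1B and of both HSPA8 isoforms, and all 81 values stayed inside the counting interval. For HSPA1A, HSPA1B and HSPA8 the largest shift was 0.02. At their levels, 0.5 or 1 added and factors of 0.993 to 1.004 can move a ratio only slightly. The intervals of HSPA2 and HSPA1L are wide enough to hold large shifts. With 1 added, HSPA1L moved from 1.03 to 0.11 and HSPA2 from -0.63 to -0.34 for BDE-209 against DMSO. These values are thus a weak check of stability. Counts of members past the fold depended on the threshold. At 2-fold with a mean of at least 1 RPKM they were 0 in each comparison. Past 20% lower or 25% higher they were 4 for DMSO against control, 1 for BDE-209 against DMSO and 5 for BDE-209 against control, and at 1.5-fold 1 for BDE-209 against DMSO and 0 for the others. With a mean of at least 100 RPKM and the same limits they were 4, 0 and 4. Without a filter on low values, the count at 2-fold was 1 in each comparison, HSPA6 (no row and so set to 0, against 2 reads) in both comparisons with the control and HSPA1L (2 reads against 1) for BDE-209 against DMSO, where 20.01 to 20.30% of all transcripts were past the fold. Restriction to a mean of 10 RPKM or to coding transcripts left 0. Depth limits HSPA2, HSPA1L and HSPA6, and without replicates the spread between cultures is unknown for all members.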
